A study of Mus musculus with 12 samples.

Results

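Serpins are serine protease inhibitors, named here by the symbols Serpina to Serpini. The genes described are every symbol of the deposited liver expression table that begins with Serpin and a letter from a to i, with a value above 0 in at least 1 sample. Serping1 and the table line that joins Serpina3f and Serpina3g were left out by that rule. Of the 23849 gene symbols in the table, 60 matched the name, 18 of those were listed at 0 in all 12 samples, and 42 made up the family described here. Members were thus chosen by name and by detection alone, and no difference between groups entered the choice. At its edge, Serpinb6c was above 0 in 1 sample, at 0.0384 FPKM, and the 18 left out were at 0 throughout.

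The study asked how a fiber gel affects the liver of mice on a high fat diet at different times of day. Liver RNA was sequenced from male C57BL/6J mice, 8 weeks old by the design text, that were all fed a high fat diet. They received vehicle or Libramed, the fiber product that the study calls Policaptil Gel Retard, for 2 weeks. By the text of the study, these were the last 2 weeks of a longer period on the diet. Livers were taken at ZT0 or ZT12, the Zeitgeber times of the end and the beginning of the active phase of a mouse. By the methods of the study, either treatment was given by daily gavage shortly before the dark phase. Time of day and time since gavage therefore cannot be told apart here. The 4 groups (vehicle ZT0, vehicle ZT12, Libramed ZT0 and Libramed ZT12) held 3 mice each, which the labels call biological replicates, and no group on a normal diet was analysed here.

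A serpin presents an exposed loop to its protease, is cut, and snaps into a new shape that traps the enzyme. The liver secretes most of the serpins of blood plasma, which hold neutrophil elastase, the clotting enzymes and plasmin in check. Some members have lost the inhibitory function and carry hormones in plasma or fold collagen inside the cell. In mice the human antitrypsin gene is represented by a cluster of near-identical copies.

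Values are FPKM, fragment numbers scaled by transcript length and library size, so that levels of different genes can be compared per length. Of the 42 serpins, 28 were above 0 in every mouse, 16 averaged above 100 FPKM and 7 above 1000 FPKM, while 14 averaged under 0.1 FPKM. The family as a whole took between 3.31% and 6.21% of the summed FPKM of all genes in a mouse, with a median of 4.23%. The sum holds nothing for the albumin gene Alb, which was listed at 0 in every library, so these are shares of the listed values only. Tests were run on the 9806 genes that averaged 1 FPKM or more over the 12 mice, of which 24 were serpins, and the other 18 serpins, the highest with a mean of 0.898 FPKM, were described by level only.

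The absolute depth of the libraries is unknown. The spacing of values at low genes put the relative depth of the 12 libraries between 0.641 and 1.31, a 2.05-fold range. Of 6 hepatocyte markers, 5 were in the table and 4 were above 0. The fifth, Alb, was listed at 0 in every library, and the other 4 summed to between 27564 and 42469 FPKM. A 0 in this table therefore need not mean that a gene was silent, which also holds for the serpins left out at 0.

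**Figure D1:**
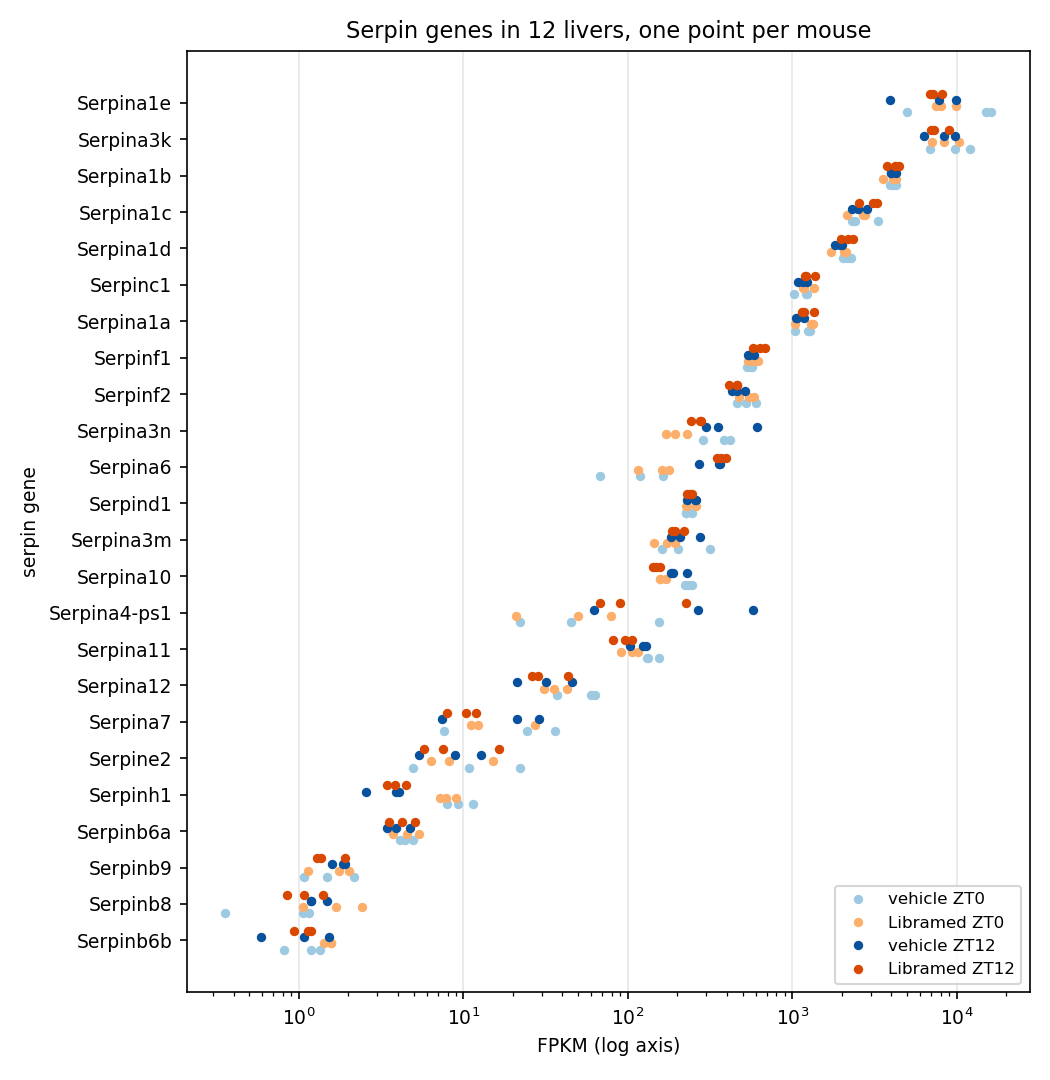
FPKM on a log axis of the 24 tested serpins, 1 point per mouse, coloured by group and ordered by mean. Serpina1e reached 16213 FPKM at the top, Serpinb8 was as low as 0.356 FPKM, and Serpina4-ps1, Serpina7 and Serpine2 were spread widely within groups.

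The antitrypsin copies, summed, gave the largest amount of serpin RNA. Serpina1a to Serpina1e, inhibitors of neutrophil elastase and related enzymes, together reached between 13079.6 and 25576.3 FPKM in a mouse. Their genes lie close together on chromosome 12, where 20 of the 42 serpins are found, and the 13 tested serpins of that chromosome span 799.5 kb (GRCm38, chr12:103614786-104414329). Matching stretches of 110 bases upstream of the RefSeq starts of the 5 copies (GRCm38.p6, minus strand) are shown 5′ to 3′, because the copies are almost the same here while their RNA levels differ between mice. In Serpina1e the capital marks the only base that differs from all 4 other copies, and in the others capitals mark differences from Serpina1e.
Serpina1e: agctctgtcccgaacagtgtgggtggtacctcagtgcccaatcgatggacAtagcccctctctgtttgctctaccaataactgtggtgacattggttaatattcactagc
Serpina1a: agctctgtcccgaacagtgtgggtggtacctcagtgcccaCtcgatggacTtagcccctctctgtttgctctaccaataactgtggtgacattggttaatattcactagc
Serpina1b: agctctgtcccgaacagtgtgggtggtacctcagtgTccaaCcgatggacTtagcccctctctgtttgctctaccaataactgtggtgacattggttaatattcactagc
Serpina1c: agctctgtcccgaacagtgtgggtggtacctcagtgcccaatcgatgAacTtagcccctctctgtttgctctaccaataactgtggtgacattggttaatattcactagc
Serpina1d: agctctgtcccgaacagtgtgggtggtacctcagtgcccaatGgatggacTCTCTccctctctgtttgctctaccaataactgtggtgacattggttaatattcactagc

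The Serpina1e stretch ends 63 bases before its annotated start and the other 4 end 1 to 12 bases before theirs. The stretches lie at chr12:103956960-103957069 for Serpina1e, chr12:103863625-103863734 for Serpina1a, chr12:103738200-103738309 for Serpina1b, chr12:103904962-103905071 for Serpina1c and chr12:103773634-103773743 for Serpina1d. Identity to Serpina1e was 98.2% for Serpina1a and Serpina1c, 97.3% for Serpina1b and 94.5% for Serpina1d, which differed at 6 bases.

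Serpina1e had the highest mean of the serpins and was the most variable antitrypsin. With vehicle at ZT0 the 3 mice had 4970, 16213 and 14944 FPKM, and with vehicle at ZT12 they had 9838, 7804 and 3928 FPKM. Libramed mice had 9814, 7442 and 8006 FPKM at ZT0, and 6819, 8162 and 7181 FPKM at ZT12. All 6 Libramed mice therefore lay between the extremes set by the vehicle mice, and the groups overlapped in every comparison. The difference between Libramed and vehicle over both times was -0.11 on the log2(FPKM + 1) scale, with a 95% interval from -0.76 to 0.54.

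The other antitrypsins were steady by comparison. Serpina1b ranged from 3899 to 4250 FPKM with vehicle at ZT0, where single mice had 4250, 3899 and 4115 FPKM. At ZT12 vehicle mice had 4285, 3966 and 3977 FPKM of Serpina1b, Libramed mice 4465, 3739 and 4208 FPKM, and at ZT0 Libramed mice 4289, 3536 and 4068 FPKM. The groups overlapped, and the highest value of the 12 was 1.26 times the lowest.

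For Serpina1c, vehicle mice had 3320, 2398 and 2295 FPKM at ZT0 and 2823, 2514 and 2312 FPKM at ZT12. Libramed mice had 2695, 2144 and 2756 FPKM at ZT0 and 3269, 2552 and 3095 FPKM at ZT12. No group stood apart.
Serpina1d was at 2285, 2025 and 2135 FPKM with vehicle at ZT0 and at 1949, 2010 and 1812 FPKM with vehicle at ZT12, so these groups did not overlap, although neither threshold was passed. With Libramed it was at 2049, 1711 and 2116 FPKM at ZT0 and at 2335, 1979 and 2166 FPKM at ZT12, where the times overlapped. Serpina1a, the lowest of the copies, lay between 1041 and 1356 FPKM.

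The share of Serpina1e in the antitrypsin total ran from 30.0% to 63.4%. The sum of Serpina1a to Serpina1d stayed between 8435 and 11425 FPKM. The copies share sequence, so these levels carry an uncertainty of assignment. Of all stretches of 100 bases in the longest transcript, the share found in no other gene was 85.2% for Serpina1e, 79.4% for Serpina1b, 70.7% for Serpina1d, 50.1% for Serpina1a and 30.7% for Serpina1c.

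Serpina3k, a member of the contrapsin group of protease inhibitors, was second in mean level. Its median over the 12 mice, 8351 FPKM, was above the 7905 FPKM of Serpina1e. Vehicle mice had 6823, 11962 and 9740 FPKM at ZT0 and 9776, 8305 and 6300 FPKM at ZT12. Libramed mice had 10252.5, 7075 and 8397 FPKM at ZT0 and 7228, 6954 and 8955 FPKM at ZT12. The groups overlapped, and the mice with the highest and lowest Serpina3k were also those with the highest and lowest Serpina1e.

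Between ZT0 and ZT12, 2 serpins passed the adjusted threshold, and they moved in opposite directions. Serpina6, corticosteroid-binding globulin, rose at ZT12, and Serpinh1, the collagen chaperone Hsp47, fell, with either treatment. Of the 24 tested serpins, 2 were called with vehicle, against 10.4% of all genes tested, and 2 with Libramed, against 12.4% of all genes. A call is a Benjamini-Hochberg adjusted p under 0.05 over all genes in limma. By direction, 1 serpin was higher and 1 lower in each comparison. The background was 5.62% higher and 4.78% lower with vehicle, and 7% higher and 5.36% lower with Libramed.

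Serpina6 carries glucocorticoids in plasma and is made by hepatocytes. With vehicle, the mice at ZT0 had 164, 67.6 and 118 FPKM and the mice at ZT12 had 269, 357 and 363 FPKM. With Libramed, the values were 115, 162 and 177 FPKM at ZT0 and 395, 366 and 349 FPKM at ZT12. All 6 mice at ZT12 were above all 6 mice at ZT0. The share of all genes that separate 6 from 6 mice was not computed, for this gene or for those below. Group means ± SD (n = 3) were 117 ± 48.4 and 330 ± 52.3 FPKM with vehicle, a ratio of 2.82, and 151 ± 32.0 and 370 ± 23.4 FPKM with Libramed, a ratio of 2.45.

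On the log2(FPKM + 1) scale, which understates the change of low genes, Serpina6 rose by 1.57 with vehicle (SE 0.31, adjusted p = 0.0271) and by 1.31 with Libramed (SE 0.16, adjusted p = 0.00468). Over both treatments the rise was 1.44 (95% interval 1.02 to 1.85, adjusted p = 0.000281), and the exact permutation p was 0.005, the smallest that 400 arrangements allow. The call with vehicle was lost when 1 of 4 mice was left out in turn, with an adjusted p of up to 0.0990, while the fit over both treatments kept it without any single mouse. With Libramed, Cyber-T, the kind of test the study used, gave an adjusted p of 0.0554.

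Serpinh1 helps procollagen fold in the endoplasmic reticulum and, in liver, is known mainly from stellate cells and other collagen-making cells. With vehicle, it was at 9.22, 7.98 and 11.4 FPKM at ZT0 and at 2.55, 4.03 and 3.87 FPKM at ZT12. With Libramed, it was at 7.19, 8.96 and 7.88 FPKM at ZT0 and at 4.50, 3.41 and 3.82 FPKM at ZT12. No mouse at ZT12 reached the lowest mouse at ZT0. At ZT0 and ZT12, group means ± SD (n = 3) were 9.55 ± 1.76 and 3.48 ± 0.811 FPKM in vehicle mice, and 8.01 ± 0.893 and 3.91 ± 0.550 FPKM in Libramed mice, so ZT0 was 2.74 and 2.05 times ZT12.

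The log2 change of Serpinh1 was -1.24 with vehicle (SE 0.18, adjusted p = 0.0102), -0.88 with Libramed (SE 0.12, adjusted p = 0.00608) and -1.06 over both treatments (95% interval -1.30 to -0.82, adjusted p = 5.91e-05). Its exact permutation p over both treatments was again 0.005. These calls held when any single mouse was left out.

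**Figure D2:**
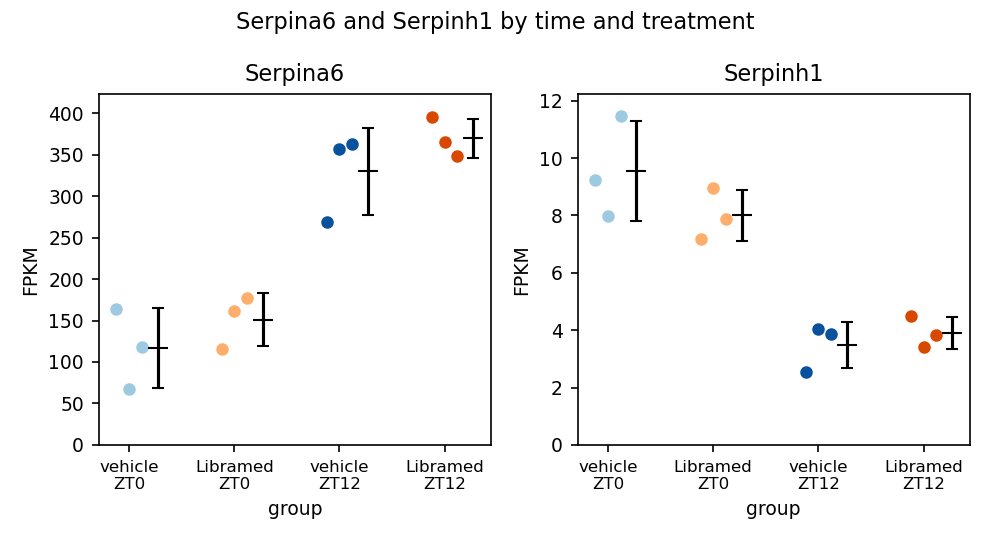
FPKM of Serpina6 and Serpinh1 in the 4 groups, 1 point per mouse, with black bars for the group mean ± SD (n = 3). Serpina6 lay between 67.6 and 177 FPKM at ZT0 and between 269 and 395 FPKM at ZT12, and Serpinh1 lay between 7.19 and 11.4 FPKM at ZT0 and between 2.55 and 4.50 FPKM at ZT12.

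Genes that work with Serpinh1 and markers of the cells that make collagen also differed by time. Of 9 collagens and folding factors of the endoplasmic reticulum, 6 were tested, and over both treatments 4 were lower at ZT12 and 0 higher: Hspa5, an endoplasmic reticulum chaperone (-1.37), Col3a1 (-0.60), Col4a1 (-0.56) and P4hb, a subunit of the collagen prolyl hydroxylase (-0.21). In that comparison 30% of all genes were called. With vehicle only Hspa5 passed, and with Libramed Hspa5 and Col3a1 passed.

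Stellate cell and fibroblast markers, all 7 above 0, summed to 33.7 to 61.6 FPKM at ZT0 and 30.5 to 47.5 FPKM at ZT12 with vehicle. With Libramed the sums were 51.1 to 68.8 and 25.0 to 44.0 FPKM, and 4 of 6 tested markers fell (Col3a1, Reln, Des and Pdgfrb), against 5.36% of all genes. With vehicle 0 of the 6 passed, and over both treatments 5 fell, against 14.1% of all genes. Endothelial markers, all 6 above 0, summed to 24.8 to 34.4 FPKM at ZT0 and 12.7 to 21.9 FPKM at ZT12 with vehicle, and to 32.3 to 40.2 and 20.0 to 21.9 FPKM with Libramed, and 5 of 5 tested fell over both treatments. By treatment, 0 of these 5 passed with vehicle and 2 with Libramed (Kdr and Clec4g). Their part in the Serpinh1 result was not tested, and in bulk liver fewer cells of a type and less RNA per cell cannot be told apart.

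The hormone axis that Serpina6 and Serpina7 serve was described by 10 genes, all tested. Over both treatments 5 were higher at ZT12 and 0 lower: Fkbp5 (1.95) and Tsc22d3 (0.68), which respond to glucocorticoids, the tyrosine aminotransferase gene Tat (0.61), the deiodinase gene Dio1 (0.87) and Hsd11b1 (0.38), which regenerates active glucocorticoid. Over both treatments 15.9% of all genes were called higher. With vehicle 1 of them passed, Fkbp5, against 5.62% of all genes, and with Libramed 4 passed, all but Hsd11b1, against 7%. The glucocorticoid receptor gene Nr3c1 did not pass and had group means of 7.83 to 9.22 FPKM. Serpina7, thyroxine-binding globulin, ranged from 7.40 to 36.0 FPKM, and its log2 difference between times was -0.39 (95% interval -1.26 to 0.47).

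Among circadian regulators, Per1, Per2 and Dbp were called higher at ZT12 and Arntl, Clock, Nr1d1 and Nfil3 lower, with vehicle and with Libramed, and Cry1 was called higher with Libramed. The median log2 change of the 24 serpins from ZT0 to ZT12 was -0.08 with vehicle and -0.05 with Libramed, beside 0.01 for all tested genes in both cases.

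At an unadjusted p under 0.05 in limma, the vehicle comparison held 2 serpins (27.4% of all genes passed it) and the Libramed comparison 5 (29.2% of all genes). Values of the times did not overlap for 5 serpins with vehicle, where 33.2% of all genes did not overlap, and for 5 with Libramed, where the share was 34.9%. All of these are at or below the background.
The added Libramed genes were Serpina3n, at 0.43 (adjusted p = 0.0622), Serpinf2, at -0.26 (adjusted p = 0.155), and Serpinb6b, at -0.27 (adjusted p = 0.0900).

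Serpinf2 is alpha-2-antiplasmin, the main plasmin inhibitor. Libramed mice had 475, 541 and 580 FPKM at ZT0 and 462, 461 and 409 FPKM at ZT12, while vehicle mice had 599, 458 and 523 FPKM at ZT0 and 430, 462 and 513 FPKM at ZT12. The times were separate with Libramed and overlapped with vehicle.
Serpinb6b, an intracellular serpin, was at 1.57, 1.43 and 1.56 FPKM with Libramed at ZT0 and at 1.14, 1.19 and 0.933 FPKM with Libramed at ZT12. Vehicle mice had 1.19, 0.816 and 1.34 FPKM at ZT0 and 0.587, 1.07 and 1.52 FPKM at ZT12. The vehicle times overlapped.

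Over both treatments, 6 serpins had an unadjusted p under 0.05 between times, 2 higher and 4 lower at ZT12, where 41.2% of all genes did (21.8% higher and 19.4% lower). Beside Serpina6, Serpinh1 and Serpinf2 these were Serpina4-ps1, Serpina12 and Serpina10. Serpina4-ps1, annotated as an unprocessed pseudogene, had the largest difference, 1.65 (95% interval 0.31 to 2.98, adjusted p = 0.0623), and the widest spread. Vehicle mice had 22.2, 153 and 45.4 FPKM at ZT0 and 576, 267 and 62.4 FPKM at ZT12, and Libramed mice had 78.6, 20.9 and 49.5 FPKM at ZT0 and 89.0, 227 and 67.6 FPKM at ZT12. Each ZT12 group held a mouse below the highest ZT0 mouse of the same treatment.

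Serpina12 encodes vaspin, an adipokine first described in visceral fat. It was at 37.1, 60.03 and 62.9 FPKM with vehicle at ZT0, 46.0, 31.7 and 21.2 FPKM with vehicle at ZT12, 42.5, 35.5 and 30.9 FPKM with Libramed at ZT0 and 43.2, 26.1 and 28.2 FPKM with Libramed at ZT12. The difference between times was -0.44 (adjusted p = 0.121), with overlap in either treatment. Of 6 fat markers, Adipoq was at most 0.0492 FPKM, Plin1 at most 0.0381 FPKM and Retn was listed at 0 in every mouse. Cfd lay between 2.85 and 7.97 FPKM at ZT0 and between 11.4 and 42.8 FPKM at ZT12 with vehicle. With Libramed it lay between 0.309 and 4.99 FPKM at ZT0 and between 2.74 and 11.2 FPKM at ZT12. It was called higher at ZT12 over both treatments, where 15.9% of all genes were. Fabp4 lay between 6.97 and 15.1 FPKM. The sum of the list, 1543 to 3221 FPKM, was nearly all Car3 (1524 to 3205 FPKM), which hepatocytes also express.

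No serpin passed the adjusted threshold between Libramed and vehicle, at ZT0, at ZT12 or over both times, and neither did any other of the 9806 genes in limma (0% called in each). Cyber-T also called 0 serpins after adjustment at either time. At an unadjusted p under 0.05, 4 serpins were lower with Libramed at ZT0 and 0 higher, where 5.81% of all genes were lower and 3.42% higher (9.23% in either direction). At ZT12 3 were lower and 0 higher, where 3.67% of all genes were lower and 3.07% higher (6.74% in either direction). In limma, Serpina10, Serpina3n and Serpina11 were among the lower at both times. With Cyber-T the unadjusted p was 0.0809 for Serpina10 at ZT12, and 0.148 at ZT0 and 0.243 at ZT12 for Serpina11. At ZT12, leaving out single mice took limma p to 0.05 or above in 4 of 6 fits for Serpina3n, 4 of 6 for Serpina11 and 0 of 6 for Serpina10. Over both times Serpina10, Serpina3n and Serpina11 were the serpins under that threshold in limma, 12.5% of the 24 tested. There 6.42% of all genes were lower and 10.5% passed in either direction.

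Serpina10 is the protein Z-dependent protease inhibitor, which blocks clotting factor Xa. Vehicle mice had 223, 246 and 231 FPKM at ZT0 and 189, 184 and 229 FPKM at ZT12. Libramed mice had 158, 169 and 156 FPKM at ZT0 and 141, 157 and 148 FPKM at ZT12. All 6 Libramed mice were below all 6 vehicle mice, and here too the share of all genes that separate in this way was not computed. Means ± SD were 217 ± 25.1 FPKM with vehicle and 155 ± 9.53 FPKM with Libramed (n = 6 each), so vehicle was 1.40 times Libramed.

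The log2 difference of Serpina10 was -0.53 at ZT0 (SE 0.09, adjusted p = 0.264), -0.42 at ZT12 (SE 0.10, adjusted p = 0.729) and -0.48 over both times (95% interval -0.62 to -0.33, adjusted p = 0.0779). By unadjusted p it ranked 2 among the 9806 genes in the last of these. An exact permutation test within times gave p = 0.005, the smallest possible with 400 arrangements, and within 1 time the smallest possible is 0.1. This p is unadjusted, and any gene whose treatments separate in the same direction at both times reaches it. The cofactor gene of Serpina10, Proz, had group means of 98.9 to 123 FPKM. Its target gene F10 had group means of 203 to 217 FPKM, and neither was called between treatments.

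Serpina3n is the mouse counterpart of alpha-1-antichymotrypsin and a known acute-phase gene. Vehicle mice had 386, 420 and 287 FPKM at ZT0 and 297, 352 and 610 FPKM at ZT12. Libramed mice had 170, 227 and 192 FPKM at ZT0 and 276, 272 and 243 FPKM at ZT12. The highest Libramed mouse, at 276 FPKM, was below the lowest vehicle mouse, at 287 FPKM. Means over both times were 392 ± 118 and 230 ± 42.9 FPKM (SD, n = 6 each), a ratio of 1.70.

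On the log2 scale Serpina3n differed by -0.88 at ZT0 (SE 0.17, adjusted p = 0.309), by -0.60 at ZT12 (SE 0.25, adjusted p = 0.729) and by -0.74 over both times (95% interval -1.10 to -0.38, adjusted p = 0.265, exact permutation p = 0.005). The ZT12 value rests in part on 1 vehicle mouse. Without vehicle ZT12 replicate 3, at 610 FPKM, it was -0.30.

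Serpina11, a less studied neighbour in the cluster, was at 155, 130 and 132 FPKM with vehicle at ZT0 and at 103, 129 and 124 FPKM with vehicle at ZT12. With Libramed it was at 90.9, 105 and 115 FPKM at ZT0 and at 106, 95.7 and 81.0 FPKM at ZT12. The treatments were separate at ZT0 and overlapped at ZT12, with log2 differences of -0.42 and -0.33. The difference over both times was -0.38 (95% interval -0.58 to -0.17, adjusted p = 0.297, exact permutation p = 0.01). Only 58.1% of its 100-base stretches are unique to it, since a second annotated gene, Gm28577, overlaps it.

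**Figure D3:**
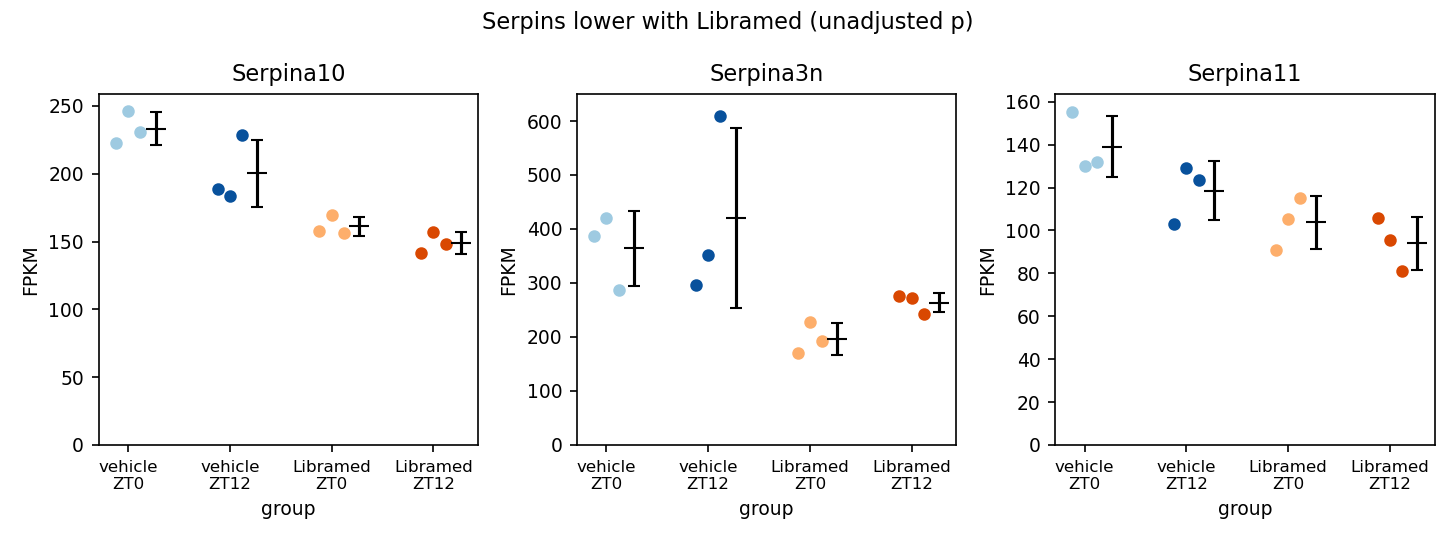
FPKM of Serpina10, Serpina3n and Serpina11 in the 4 groups, 1 point per mouse, with black bars for the group mean ± SD (n = 3). Libramed mice were below vehicle mice without overlap for Serpina10 (at most 169 against at least 184 FPKM) and Serpina3n (at most 276 against at least 287 FPKM), and overlapped for Serpina11.

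Non-overlap between treatments was found for 4 serpins at ZT0 (Serpina10, Serpina11, Serpina3n and, in the other direction, Serpinb6b), where 15.1% of all genes did not overlap, and for 2 at ZT12 (Serpina10 and Serpina3n), where 13.1% of all genes did not. Serpina12, the remaining gene under the unadjusted threshold at ZT0, was at -0.52 (adjusted p = 0.540), and its groups overlapped.

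Other lists were read beside these genes. Of 10 tested acute-phase signalling genes, 0 passed the adjusted test between treatments, and over both treatments 4 were higher at ZT12: Il6ra, the interleukin-6 receptor (1.22), Il1r1, the interleukin-1 receptor (0.95), and the transcription factor genes Cebpb (1.12) and Cebpd (0.83). In that comparison 15.9% of all genes were called higher. Stat3, which transmits interleukin-6 signals, had means of 30.7 ± 3.86 FPKM with vehicle and 22.4 ± 3.23 FPKM with Libramed at ZT0 (n = 3), and was not called. At ZT12 its means were 21.9 ± 3.05 and 21.5 ± 1.84 FPKM. At an unadjusted p under 0.05 in limma, 1 gene of this list was higher and 2 were lower with Libramed at ZT0, where 3.42% of all genes were higher and 5.81% lower. At ZT12 0 were.

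Macrophage markers, all 7 above 0, summed to 28.5 to 35.4 FPKM with vehicle and 15.7 to 27.9 FPKM with Libramed at ZT0, and overlapped at ZT12 (14.3 to 40.1 and 19.4 to 30.0 FPKM). The hepatocyte marker sum had the opposite order, with 28771 to 32319 FPKM with vehicle and 34371 to 42469 FPKM with Libramed at ZT0. At ZT12 it was at 27564 to 31249 and 31506 to 38031 FPKM. Apoa1 carried most of it, with means of 22771 and 29394 FPKM at ZT0, while Cps1 was at 463 FPKM in both groups and Apob at 292 with vehicle and 270 with Libramed. Of the 4 tested hepatocyte markers, 0 passed the adjusted test. Neutrophil markers summed to 0.750 to 10.9 FPKM with vehicle and 2.54 to 19.8 FPKM with Libramed. The part of these cells in the lower Serpina10, Serpina3n and Serpina11 levels was not tested.

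Promoter sequences of the Serpina3n and Serpina11 genes are shown because both genes were lower with Libramed at an unadjusted p under 0.05 and each holds 1 of the motifs searched. Serpina10 and, at ZT0, Serpina12 were also lower at that threshold and were not among the serpins found to hold a motif. The 250 bases before the RefSeq start (GRCm38.p6) are printed, at chr12:104406458-104406707 (plus strand) for Serpina3n and chr12:103989958-103990207 (minus strand) for Serpina11. Capitals mark AGAACA, a half-site of the glucocorticoid receptor, and TTCNNNGAA, the core of STAT sites.
Serpina3n: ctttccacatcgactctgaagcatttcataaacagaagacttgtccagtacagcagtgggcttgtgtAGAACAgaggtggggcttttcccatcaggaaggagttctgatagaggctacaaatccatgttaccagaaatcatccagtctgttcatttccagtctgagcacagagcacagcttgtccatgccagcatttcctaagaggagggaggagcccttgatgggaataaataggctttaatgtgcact
Serpina11: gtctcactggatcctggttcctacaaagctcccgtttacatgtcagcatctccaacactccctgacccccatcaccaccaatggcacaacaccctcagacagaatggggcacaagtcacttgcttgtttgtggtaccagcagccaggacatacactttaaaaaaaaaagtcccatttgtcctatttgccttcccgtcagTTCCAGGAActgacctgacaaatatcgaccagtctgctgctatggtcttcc

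Of the 42 serpins, 33 had a promoter entry in the RefSeq table. TTCNNNGAA was found in 4 of the 33 and in 7.02% of all 32851 promoters. AGAACA, read on both strands, was found in 14 of the 33 and in 16.1% of all promoters, and the 14 include all 5 antitrypsin copies, which share their sequence. CACGTG, the E-box bound by clock proteins, was found in 0 of the 33 and in 6.02% of all promoters. None of the antitrypsin copies had an unadjusted p under 0.05 between treatments in limma. A match of letters is a description and not a binding site, and a link of these motifs to treatment was not tested.

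Other plasma serpins varied within narrow limits. Serpinc1, antithrombin, ranged from 1028 to 1379 FPKM and differed between treatments by 0.11 (95% interval -0.05 to 0.27). Only 41.6% of its 100-base stretches are unique, because Zbtb37 overlaps it. Serpind1, heparin cofactor II, ranged from 225 to 260 FPKM, with a difference of -0.01 (95% interval -0.14 to 0.11). For Serpinf1, pigment epithelium-derived factor, a serpin without inhibitory activity, the difference was 0.13 (95% interval -0.01 to 0.26).

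Intervals as narrow as these were also found for Serpina1b and Serpina1d between treatments (-0.17 to 0.14 and -0.15 to 0.17), and wide ones for Serpine2, protease nexin-1 (-0.85 to 0.73), and Serpina7 (-1.36 to 0.38). Serpina3m, at 143 to 313 FPKM, differed by -0.25 (95% interval -0.59 to 0.10).

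Proteases that serpins inhibit were listed as 21 genes, of which 14 were tested. Between treatments 0 passed the adjusted test. Over both treatments 3 were higher at ZT12, the clotting factor gene F7 (0.36) and the genes of the liver proteases hepsin, Hpn (0.31), and hepatocyte growth factor activator, Hgfac (0.36), and 1 was lower, the cathepsin gene Ctsl (-0.26). These 4 of 14 stand beside 30% of all genes called. Among 8 partners and receptors, 5 were tested. Pnpla2, the lipase that binds Serpinf1, rose at ZT12 with vehicle (0.56) and with Libramed (0.52), and Proz passed only over both treatments (0.23). Serpinf1 itself differed between times by 0.07 (95% interval -0.07 to 0.20).

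**Figure D4:**
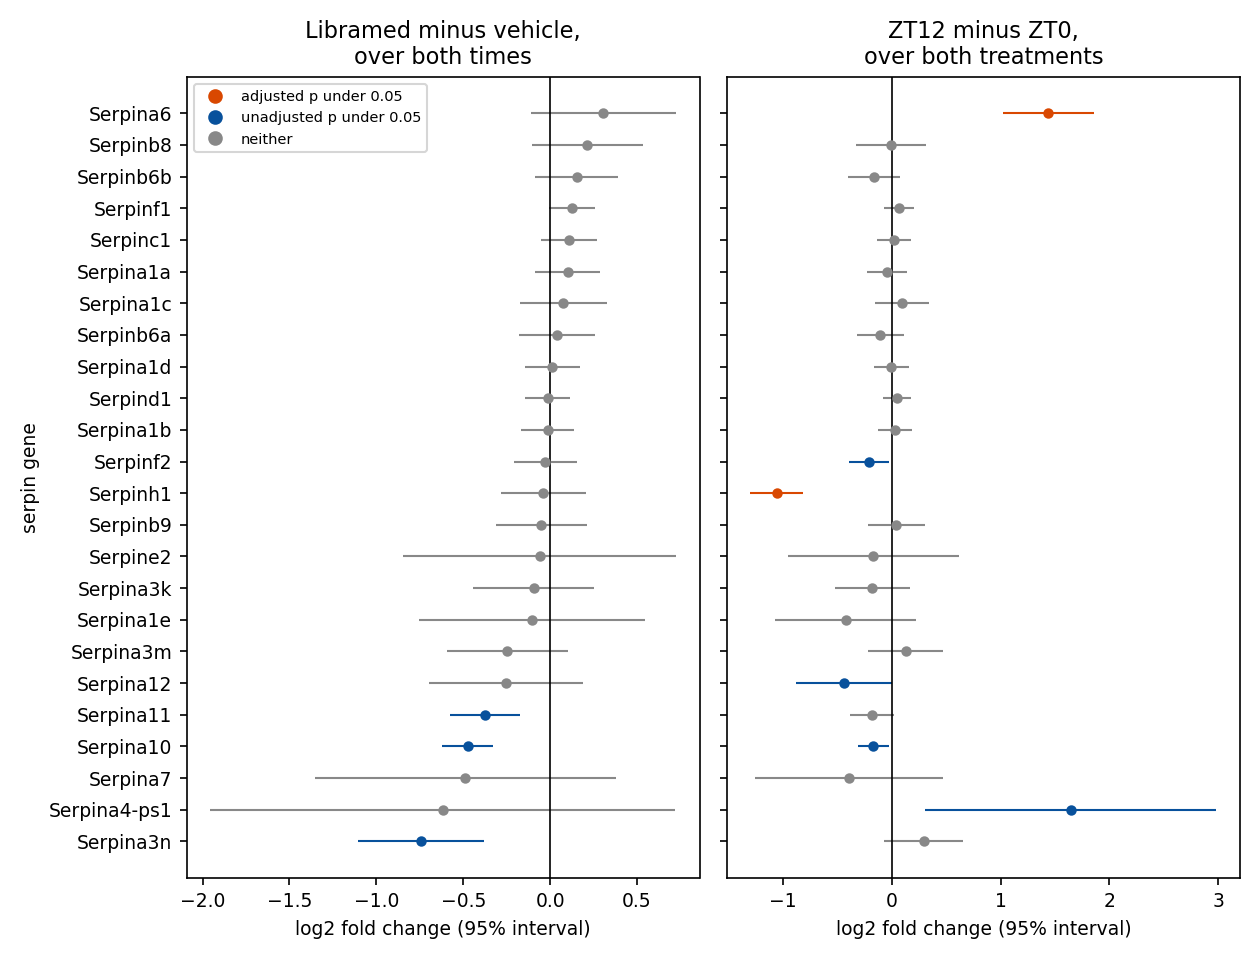
Log2 differences of the 24 tested serpins with 95% intervals from the fit of all 12 mice, Libramed minus vehicle on the left and ZT12 minus ZT0 on the right, coloured by threshold. Serpina6 (1.44) and Serpinh1 (-1.06) pass the adjusted threshold by time, and Serpina3n, Serpina10 and Serpina11 have intervals below 0 by treatment.

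The intracellular clade B serpins, which guard cells against their own proteases, were low. Serpinb6a ranged from 3.43 to 5.37 FPKM and Serpinb9, the granzyme B inhibitor, from 1.07 to 2.15 FPKM. Serpinb8 was at 1.16, 0.356 and 1.06 FPKM with vehicle at ZT0, 1.19, 1.18 and 1.48 FPKM with vehicle at ZT12, 1.06, 1.67 and 2.40 FPKM with Libramed at ZT0, and 1.41, 0.851 and 1.08 FPKM with Libramed at ZT12. The vehicle times were separate and the Libramed times overlapped. The interaction of time and treatment called 0 serpins and 0 of all genes, and at an unadjusted p under 0.05 held 1 serpin, Serpinb8 (-0.66, adjusted p = 0.735), where 6.63% of all genes passed and 2.8% did so with a negative value.

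Serpins under the minimum for testing included Serpinb1a, an elastase inhibitor of leukocytes, at 0.0673 to 2.08 FPKM. Serpina9 ranged from 0.0888 to 2.51 FPKM. Serpina5, the protein C inhibitor, was at most 0.172 FPKM, and Serpini1, neuroserpin, at most 0.0687 FPKM. The low values rest on few reads, and no difference could be read from them.

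Mice of 1 group differed from each other more in some serpins than most genes did. The within-group SD on the log2 scale was above the 95th percentile of all tested genes in 6 serpins (Serpina4-ps1, Serpina7, Serpine2, Serpina1e, Serpina12 and Serpina6) and above the median gene in 18 of 24. The median SD was 0.21 for serpins and 0.14 for all tested genes. Serpina4-ps1 had the widest range, 27.5-fold between the lowest and the highest mouse.

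These differences between mice ran together in parts of the family. After each group mean was removed, Serpina1e went with Serpina3k (r = 0.86), Serpina4-ps1 (r = 0.82), Serpina12 (r = 0.76) and Serpine2 (r = 0.76) over the 12 mice, and against Serpina3m (r = -0.90), Serpinf2 (r = -0.78), Serpina6 (r = -0.75) and Serpina7 (r = -0.71). The correlations with Serpina1a to Serpina1d lay between -0.35 and -0.04. They are descriptions across 12 mice that share libraries with every other gene. Serpins were named above if r was over 0.7 or under -0.7, and the share of all genes beyond these limits was not computed. Outside the family, correlations with Serpina1e reached 0.98 and -0.96. The check without the 3 vehicle mice at ZT0, where Serpina1e ranged most, was chosen after the values were seen. In it, the 4 positive correlations named above were 0.78, 0.91, 0.69 and 0.63, and the 4 negative ones were -0.79, -0.68, -0.61 and -0.71. Those with Serpina1a to Serpina1d then turned positive, between 0.25 and 0.42, and Serpina3n, at -0.61 over 12 mice, was the most negative of the 24, at -0.96.

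**Figure D5:**
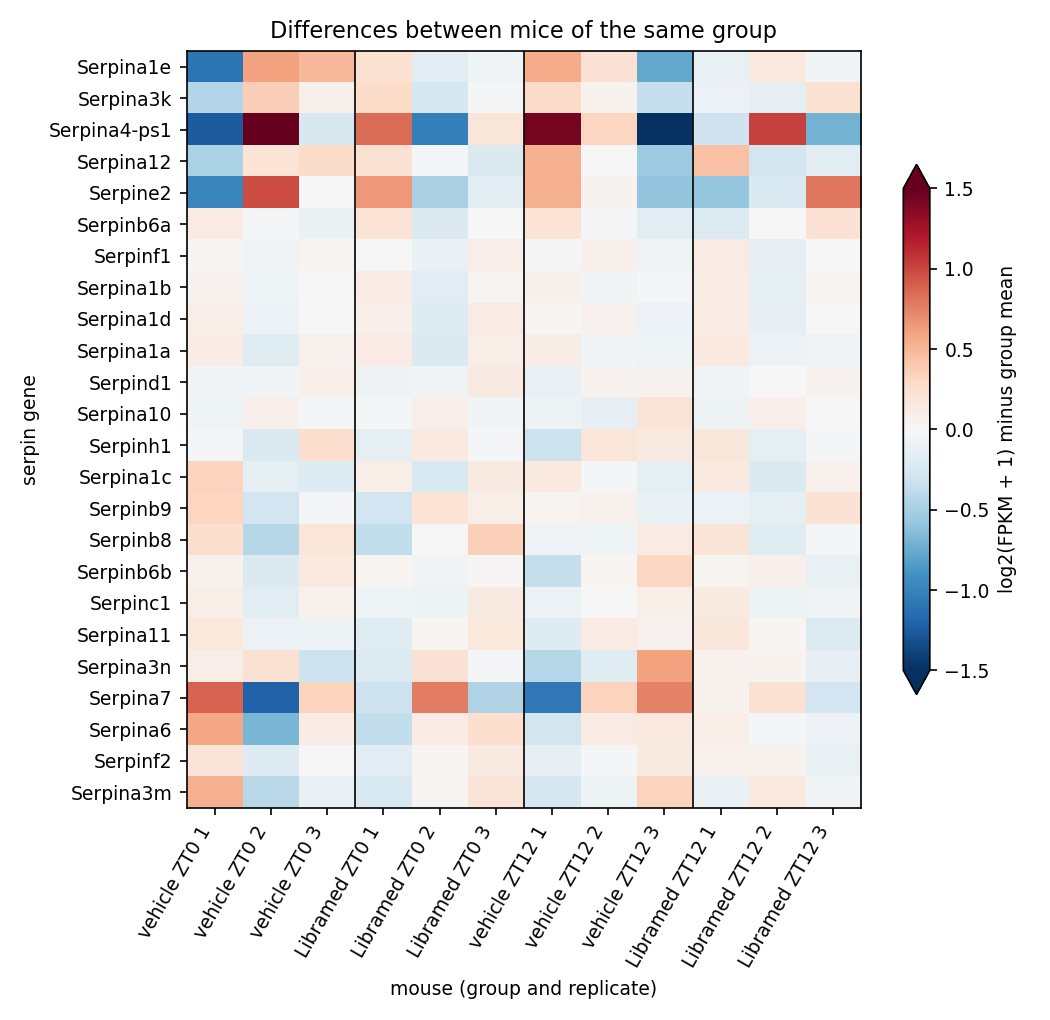
Deviation of log2(FPKM + 1) from the group mean for the 24 tested serpins (lines) in the 12 mice (columns, vertical lines between groups), ordered by correlation with Serpina1e. Vehicle ZT0 replicate 1 and vehicle ZT12 replicate 3 are low in Serpina1e, Serpina3k, Serpina4-ps1, Serpina12 and Serpine2 and high in Serpina7 and Serpina3m.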

How the data were processed

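Liver RNA of 12 mice was sequenced (3 per group). The deposited table holds FPKM per gene; per the labels, the authors used TopHat and Cuffnorm with mm10/GRCm38, while the methods of the study name another aligner, uniquely mapped reads and RPKM. The counting of strand is not given in the sources used here. Of 24138 lines, 289 repeated symbols were dropped, keeping the line with the highest mean. Genes averaging 1 FPKM or more were tested on log2(FPKM + 1) with limma 3.58.1 (R 4.3.3; trend in eBayes, two-sided), with Benjamini-Hochberg adjustment over all 9806. Pairwise comparisons used 6 mice, and the 3 others all 12. Serpins with an unadjusted limma p under 0.05, apart from the interaction, got two-sided exact permutation tests on the same values, without adjustment. Depth is unknown, so no counting intervals are given. In limma, p-values set a group difference against the spread between these mice, with variance information shared between genes. Serpins with an unadjusted p under 0.05 and the 5 most abundant were named with all values, and the members and lists were chosen with earlier results of these data known. Scripts were tested on simulated data. Alternatives changed the pseudocount, minimum, scaling, trend, samples, replicate block and tool (Cyber-T). The pancreas, lymphocyte and blood lists gave at most 76.4, 1.83 and 99.6 FPKM in sum, and 1 tested pancreas gene (Cela1) and 1 fat gene (Cfd) passed over both treatments. A serpin under the minimum for testing and a circadian gene are not reported here.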

Additional observations from a re-analysis of the deposited data

Results flagged for a closer look

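The response of Serpinb8 to time differed between treatments at an unadjusted threshold. The interaction, the change from ZT0 to ZT12 with Libramed minus that with vehicle, was -0.66 on the log2(FPKM + 1) scale (limma adjusted p = 0.735 over all genes). The gene was near the minimum for testing, at 0.356 to 2.40 FPKM, and the interaction ran from -1.19 to -0.59 under the alternatives tried. Leaving out single mice gave -0.85 to -0.45, and in 8 of 12 cases the unadjusted p was no longer under 0.05.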

How the results depend on the processing

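None of the 24 single-gene results tried under the alternatives, those with an unadjusted p under 0.05, changed direction. Over the alternatives and the fits without single mice, the unadjusted p stayed under 0.05 in 319 checks and did not in 79. Serpina12 between treatments at ZT0 lost it in 7 of 9 alternatives, and Serpina3n at ZT12 in 5 of 9. Serpina6 and Serpinh1 between times lost it in 0. With vehicle, 2 serpins were called between times, and 1 without a minimum FPKM, 1 with the replicate block and 1 to 2 with single mice left out (1 without vehicle ZT0 replicate 3 or any of the 3 vehicle ZT12 mice). Serpinh1 stayed in each case, and the call lost was Serpina6. Cyber-T gave 3. With Libramed the count was 2, and 2 to 3 with single mice left out. There quantile normalization gave 3 (Serpinf2 added, adjusted p = 0.0400), and Cyber-T gave 2, of which 1 was shared, since Serpina6 had an adjusted p of 0.0554. Over both treatments it was 2, 4 with quantile normalization (Serpinf2, adjusted p = 0.00471, and Serpina10, adjusted p = 0.0333, added), and 2 to 4 with single mice left out (4 when replicate 2 of vehicle ZT0 or replicate 3 of vehicle ZT12 was left out). Between treatments over both times it was 0, and 1 with a minimum mean of 5 FPKM (Serpina10, adjusted p = 0.0430). Whether the replicate numbers pair the mice cannot be settled with 3 mice per group. Over 18 pairs, correlations ran from -0.28 to 0.34, with 4 above 0.1. Apart from Serpina6 with vehicle, the block moved no adjusted call of a serpin. Causes were not tested. Unknown depth and 3 mice per group limit low genes most.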

Other observations

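Among all tested genes, those whose deviations between mice were most like Serpina1e were Mup20, a major urinary protein (r = 0.98 over 12 mice), Gga3 (r = 0.97), the complement genes C9 and C6 (both r = 0.96) and F2r (r = 0.96). They were picked as the highest of all genes after their values were seen, and the correlations are given as a description.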
